A study of Mus musculus with 4 samples.

Results

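The genes described here carry glucose from the cell surface to pyruvate, and pyruvate on to lactate or into the mitochondrion. They were chosen by symbol from a list of 36 genes, and every probe set of the deposited table that was annotated to exactly 1 of these symbols was taken. This gave 71 of the table's 45101 probe sets, for 33 of the 36 genes, among 18194 genes named this way in the whole table. Expression of Gpi1, Pfkfb1 and Eno1 is not analysed here. Of the 71 probe sets, 62 (for 32 genes) were tested, 6 lay below the level required for testing, and 3 (the probe sets for Gapdh) belong to the manufacturer's controls and are given as values.

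The samples were HL-1 cells, an immortalised line of mouse atrial muscle cells that descends from a tumour of the atrium and still contracts in culture. Cells of both groups were grown to confluence in supplemented Claycomb medium on coated coverslips. In the stimulated group (2 samples) an electric stimulus drove contraction at 300 beats per minute over 24 h, and in the control group (2 samples) they beat spontaneously without pacing. No group was paced at the control rate, so an effect of the rate and one of the electric field cannot be told apart. Each sample was hybridised to 1 Affymetrix array. The stimulated samples are labelled exp 1 and exp 2, while the controls carry no such label. Beyond this, the labels do not say whether a group's samples came from separate cultures. The p-values therefore rest on the spread among these 4 samples alone, and part of that spread may be technical.

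In glycolysis, glucose enters through transporters of the SLC2A family, is trapped by hexokinase and committed by phosphofructokinase, and is then split and oxidised to pyruvate with a net gain of ATP. Pyruvate is either reduced to lactate by lactate dehydrogenase and exported by monocarboxylate transporters, or oxidised by the pyruvate dehydrogenase complex, which the PDK kinases switch off and PDP phosphatases switch on. Heart muscle takes most of its ATP from fatty acids and raises glucose use when oxygen is short, and many glycolytic genes are known targets of the hypoxia-inducible factor HIF-1.

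Levels are RMA values on the log2 scale, in which 1 unit is a doubling, and changes are stimulated minus control on that scale with the standard error (SE) of the fit. A probe set was called lower or higher at a Benjamini-Hochberg adjusted p under 0.05 from limma, over all 27000 probe sets tested. With stimulation, 9 of the 62 tested member probe sets were called lower and 1 was called higher. The background share of calls among all probe sets tested was 1.38% lower and 2.47% higher. The members were brighter, with a median level of 9.89 against 6.92, and were chosen with earlier results of these data known. In a fit of brighter probe sets only (60th percentile filter), 12 of 56 members were called lower, against 3.29% of all probe sets tested there. The 9 falls belonged to 6 genes: Hk1, Pfkl, Aldoc, Tpi1, Ldha and Pdk1. They ranged from 1.63-fold for a Tpi1 probe set to 9.47-fold for a Pdk1 probe set, with adjusted p between 0.0298 and 0.0476. The single rise was Eno2, the neuronal enolase isoform, at 2.95-fold. In RNA from whole cultures, fewer cells that express a gene and less RNA per cell cannot be told apart.

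The remaining 52 tested probe sets were not called, of which 44 lay below 0 and 8 above. The median change of the 62 was -0.47, against -0.02 over all probe sets tested. In 45 of them both stimulated arrays lay below both control arrays, and in 5 both lay above, where the shares among all probe sets tested were 28.8% and 25.3%. By gene, 24 of the 32 had all tested probe sets below 0, 5 had all above 0 (Pfkfb4, Eno2, Slc16a1, Pdk4 and Pdp1), and 3 lay on both sides (Slc2a3, Pfkfb2 and Pfkfb3). The calls rested on all 4 arrays. With 1 array left out, 0 member probe sets were called in 3 of the 4 fits by limma, and without control 1 the 3 tested Pdk1 probe sets were called lower and 0 others. At an unadjusted p under 0.05, 37 of the 62 were lower and 3 higher with all arrays, where the shares among all probe sets tested were 11.9% and 12.0%, or 23.9% in either direction. The 4 fits with 1 array left out had 21 to 37 members lower and 2 to 6 higher at that threshold, with shares of 6.79% to 11.1% and 7.67% to 10.8% among all probe sets. Calls were also scarce in the whole table in those fits, with 0 to 28 lower and 7 to 111 higher. The median change of the members was -0.36 to -0.52 in the same 4 fits.

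**Figure D1:**
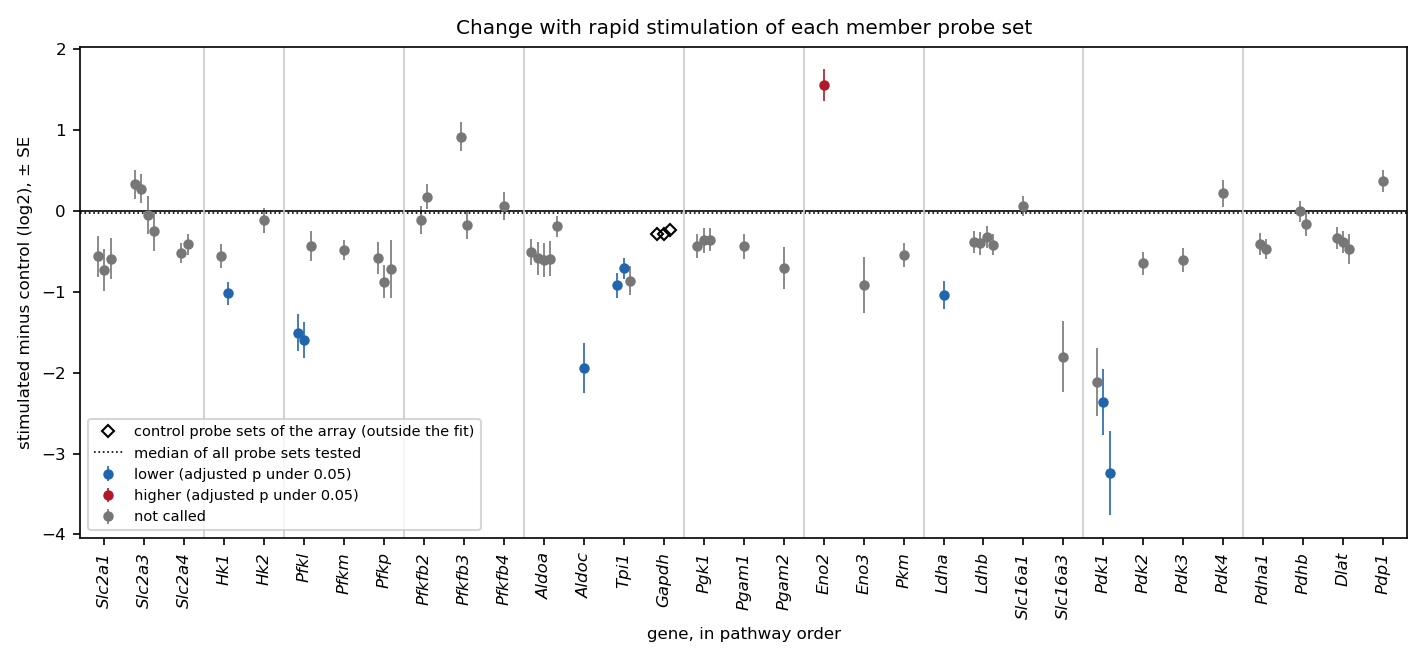
Change of each member probe set as log2 of stimulated over control, with bars for the SE of the fit, for genes in pathway order and with grey lines between steps. Most points lie below 0. The 9 called falls belong to Hk1, Pfkl, Aldoc, Tpi1, Ldha and Pdk1, and Eno2 is the 1 called rise.

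Because 6 members fell together and 1 rose, the sequences at their start sites are shown for 4 of them: Pdk1 and Aldoc, which fell most, Ldha, the enzyme that makes lactate, and Eno2, the rise. The windows are RefSeq's for mouse GRCm38.p6, from 250 bases before to 50 bases after the first start site listed, and read 5′ to 3′ on the gene's strand. Capitals mark ACGTG and GCGTG, the cores of known HIF binding elements, found on either strand, so that the reverse strand appears as CACGT or CACGC. The motif CACGTG, the E-box of other factors, holds ACGTG on both strands and is counted once on each.

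Pdk1 (chr2:71872974-71873273, + strand): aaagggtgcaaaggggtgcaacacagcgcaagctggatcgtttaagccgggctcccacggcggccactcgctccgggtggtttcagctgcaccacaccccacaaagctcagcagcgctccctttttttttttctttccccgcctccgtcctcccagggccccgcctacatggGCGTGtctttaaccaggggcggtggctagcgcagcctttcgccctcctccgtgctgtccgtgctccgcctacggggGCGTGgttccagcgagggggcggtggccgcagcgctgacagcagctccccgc

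Ldha (chr7:46845554-46845853, + strand): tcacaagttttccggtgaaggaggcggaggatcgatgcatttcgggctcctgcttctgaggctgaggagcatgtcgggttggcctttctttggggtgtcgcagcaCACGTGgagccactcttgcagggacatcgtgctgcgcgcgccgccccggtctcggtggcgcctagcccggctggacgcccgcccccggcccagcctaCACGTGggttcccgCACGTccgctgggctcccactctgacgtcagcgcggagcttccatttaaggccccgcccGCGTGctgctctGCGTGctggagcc

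Aldoc (chr11:78322823-78323122, + strand): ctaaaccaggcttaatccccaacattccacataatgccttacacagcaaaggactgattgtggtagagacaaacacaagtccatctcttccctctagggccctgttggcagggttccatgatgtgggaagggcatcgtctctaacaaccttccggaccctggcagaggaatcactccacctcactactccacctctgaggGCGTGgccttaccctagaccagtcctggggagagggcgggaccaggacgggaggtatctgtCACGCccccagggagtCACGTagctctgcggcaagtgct

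Eno2 (chr6:124769624-124769923, - strand): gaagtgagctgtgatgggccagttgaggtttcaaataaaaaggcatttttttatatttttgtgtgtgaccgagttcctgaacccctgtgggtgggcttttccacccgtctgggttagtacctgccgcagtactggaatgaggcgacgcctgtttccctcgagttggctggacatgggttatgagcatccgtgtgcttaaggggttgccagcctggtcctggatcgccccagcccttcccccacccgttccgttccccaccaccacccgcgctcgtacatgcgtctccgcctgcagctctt

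The Ldha window held 7 matches, 5 of ACGTG and 2 of GCGTG, and its 2 CACGTG motifs account for 4 of the 5. The Pdk1 window held 2 GCGTG, the Aldoc window 1 ACGTG and 2 GCGTG, and the Eno2 window 0 matches. Of the other called genes, the first listed windows of Hk1 and Tpi1 held 0 matches and that of Pfkl held 1. A second Hk1 window held 5, and the second windows of Ldha, Aldoc and Pdk1 held 2, 1 and 0. Windows were found for 30 of the 33 genes with a probe set, 44 in all, since some genes have several start sites. Of these, 34 (77.3%) held either core, and so did 7 of the 10 windows (70.0%) of the genes called lower, against 43.8% of all 32817 windows in the table. Slc2a3, Slc2a4 and Pdp1 were not matched. The members' windows were also richer in G and C, with a median of 61% against 52.7%. CACGTG alone was in 6 of the members' windows (13.6%) and in 7.15% of all windows. A match of 5 letters is a description of the window and says nothing of binding.

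The spread between the 2 controls differed widely along the pathway. The median difference between them was 0.24 over the 62 member probe sets and 0.15 over all probe sets tested. For the 2 stimulated arrays these medians were 0.19 and 0.17. Control 2 was above control 1 in 40 of the 62 members (64.5%, against 49.4% of all probe sets), and in 9 of the 9 called lower. Stimulated 2 was above stimulated 1 in 8 of these 9. The labels do not tie a control to the stimulated sample of the same number, so the directions in the 2 groups are not matched. Over the members, the median of array 2 minus array 1 was 0.15 in the controls and 0.12 in the stimulated group. Over all probe sets tested these medians were -0.002 and -0.03. A difference over 0.5 between controls was found in 13 member probe sets of 7 genes (21.0%, against 6.22% of all), and control 2 was the higher array in each of the 13. These were Slc2a1, Pfkl, Pfkp, Aldoa, Aldoc, Slc16a3 and Pdk1. In each of the 9 probe sets called lower, the gap between the nearest arrays of the groups was larger than the difference between the controls. This was so for 30 of the 62 members (48.4%) and 32.3% of all probe sets. The calls favour such a gap, since the fit weighs each change against the spread within groups. The 9 of 9 is thus no separate evidence.

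**Figure D2:**
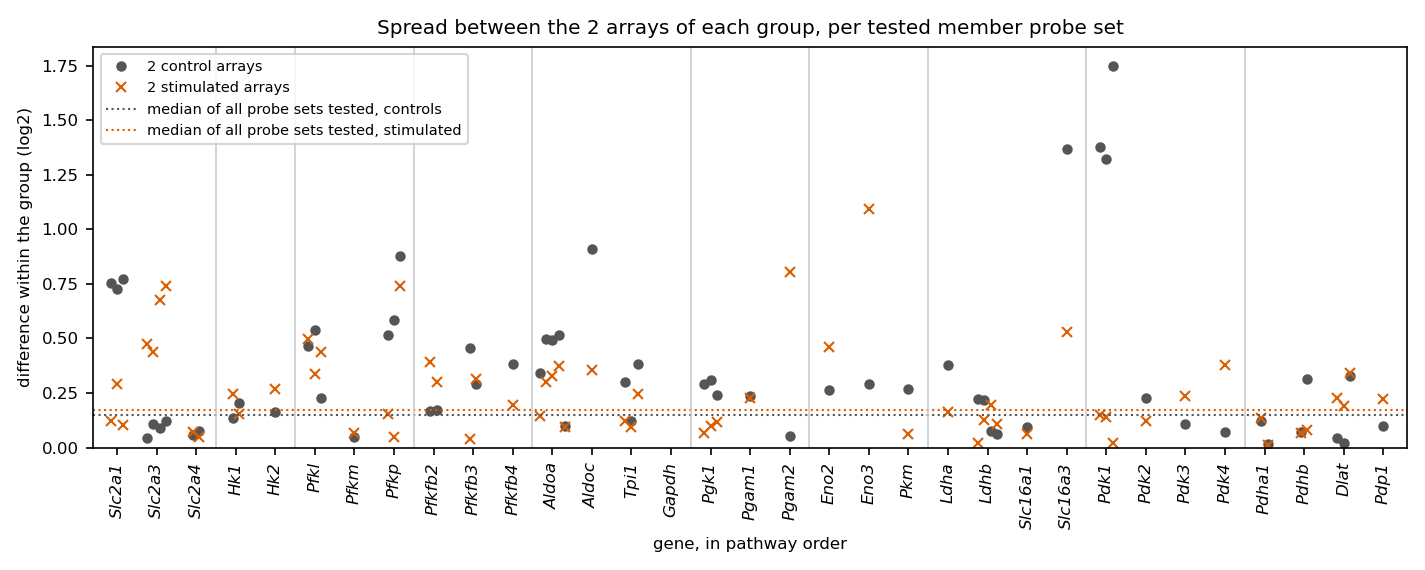
Difference on the log2 scale between the 2 control arrays (grey points) and between the 2 stimulated arrays (orange crosses) for each tested member probe set, with the medians over all probe sets tested as dotted lines. The controls differed most for Pdk1 (up to 1.75) and Slc16a3 (1.37), and the stimulated arrays for Eno3 (1.09). Gapdh was outside the fit and has no point.

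Glucose entry came first. Slc2a1 encodes GLUT1, the transporter of basal glucose uptake, Slc2a3 the high-affinity GLUT3, and Slc2a4 the insulin-responsive GLUT4 of muscle and fat. None of their 9 probe sets was called by limma. At an unadjusted p under 0.05 there were 3, where 23.9% of all probe sets tested passed. The brightest Slc2a1 probe set read 9.92 and 10.67 on the controls and 9.67 and 9.79 on the stimulated arrays. All 3 Slc2a1 probe sets lay lower on both stimulated arrays (28.8% of all probe sets tested). Their differences were -0.56 to -0.73 (adjusted p = 0.162 to 0.245), but the controls themselves differed by 0.73 to 0.77. Slc2a4 was steadier. Its brighter probe set read 8.58 and 8.52 on the controls and averaged 8.03 on the stimulated arrays, which were 0.07 apart, a difference of -0.52 ± 0.13 (adjusted p = 0.0795), and the other differed by -0.41 ± 0.13 (adjusted p = 0.122).

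The 4 Slc2a3 probe sets disagreed. The names of the 2 brightest mark them as able to read similar sequences of other genes too. The brightest read 9.16 and 9.12 on the controls and 9.70 and 9.23 on the stimulated arrays (0.33 ± 0.19), and the next read 7.67 and 7.56 against 8.12 and 7.68 (0.28 ± 0.18). The third read 6.10 and 6.01 against 6.35 and 5.67 (-0.05 ± 0.23), and the dimmest 4.81 and 4.69 against 4.87 and 4.13 (-0.25 ± 0.25). In all 4 stimulated 1 was the highest array, while stimulated 2 was the lowest in the last pair, so the groups overlapped in those.

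Hexokinase phosphorylates glucose and so traps it in the cell. Hk1, the broadly expressed isoform, read 9.70 and 9.84 on the controls and 9.09 and 9.34 on the stimulated arrays with its brighter probe set, a difference of -0.56 ± 0.15 (adjusted p = 0.0928). With the other it read 9.71 and 9.91 against 8.72 and 8.87 and fell by 1.01 ± 0.14 on the log2 scale (2.02-fold, adjusted p = 0.0309). The groups did not overlap on either probe set (28.8% of all probe sets tested lay lower without overlap). Hk2, the inducible isoform of muscle, read 10.37 and 10.54 on the controls and 10.48 and 10.21 on the stimulated arrays. The groups overlapped, and the difference was -0.11 ± 0.15, with a 95% interval from -0.49 to 0.26.

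Phosphofructokinase catalyses the committed step. Its subunits are named for liver (Pfkl), muscle (Pfkm) and platelet (Pfkp), and all 7 probe sets lay below 0, with a median of -0.72. Pfkl read 10.71 and 11.18 on the controls and 9.19 and 9.69 on the stimulated arrays with its brightest probe set, a fall of 1.50 ± 0.23 (2.83-fold, adjusted p = 0.0344). With the next it read 10.29 and 10.83 against 8.79 and 9.13 and fell by 1.59 ± 0.22 (3.02-fold, adjusted p = 0.0298). In both, each stimulated array lay over 1 unit below each control. The third Pfkl probe set read 5.72 and 5.94 against 5.62 and 5.18 and differed by -0.43 ± 0.19 (adjusted p = 0.236).

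Pfkm had the closest controls of the 3 genes, 10.74 and 10.69 on the controls and 10.20 and 10.27 on the stimulated arrays, and differed by -0.48 ± 0.13 (adjusted p = 0.0912). Pfkp differed by -0.58 to -0.87 on its 3 probe sets (adjusted p = 0.0768 to 0.284), with control differences of 0.52 to 0.88. Both stimulated arrays lay below both controls in 6 of the 7 phosphofructokinase probe sets (28.8% of all probe sets tested), the dimmest Pfkp probe set being the exception.

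The PFKFB enzymes make and break fructose 2,6-bisphosphate, the strongest activator of phosphofructokinase. The median change of this step was 0.07 over 5 tested probe sets, with 0 calls by limma and 1 probe set at an unadjusted p under 0.05 (23.9% of all probe sets tested). Pfkfb3, the isoform with the highest kinase activity, read 5.31 and 4.86 on the controls and 5.98 and 6.03 on the stimulated arrays with its brighter probe set. The groups did not overlap, where 25.3% of all probe sets tested lay higher without overlap. The Pfkfb3 difference of 0.92 ± 0.18 just missed the threshold (adjusted p = 0.0516). It passed in 4 of the 10 alternative fits that tested it (adjusted p = 0.0408 to 0.0483) and missed in the other 6 (0.0523 to 0.218). The other Pfkfb3 probe set read 5.13 and 5.42 against 4.95 and 5.26, with overlap, and differed by -0.17 ± 0.17. Pfkfb4 differed by 0.07 ± 0.18, and the tested Pfkfb2 probe sets by -0.11 ± 0.17 and 0.18 ± 0.16. Both other Pfkfb2 probe sets read 2.98 to 3.79, below the filter level of 4.39.

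Aldolase splits fructose 1,6-bisphosphate, and triose phosphate isomerase and GAPDH carry the products onward. All 9 tested probe sets of this segment lay below 0 without overlap of the groups, 3 of them called. Among all probe sets tested, 28.8% lay lower without overlap and 1.38% were called lower. Aldoc, the brain-type aldolase, read 9.23 and 10.14 on the controls and 7.56 and 7.92 on the stimulated arrays. It fell by 1.94 ± 0.31 (3.84-fold, adjusted p = 0.036). The controls differed by 0.91, and the change was -1.49 against control 1 alone and -2.40 against control 2 alone. A second Aldoc probe set read 3.25 to 3.83, below the filter level. Aldoa, the muscle aldolase, had 5 probe sets, whose names mark them as able to read similar sequences of other genes too (as do those of some Tpi1, Pgk1 and Ldhb probe sets), and which differed by -0.19 to -0.60 (adjusted p = 0.134 to 0.449). Its brightest read 12.82 and 13.16 on the controls and 12.41 and 12.55 on the stimulated arrays.

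Tpi1, triose phosphate isomerase, fell by 0.92 ± 0.15 with its brightest probe set, from 13.11 and 13.41 on the controls to 12.28 and 12.40 on the stimulated arrays (1.89-fold, adjusted p = 0.0401). With the next, of a type that can also read similar sequences, it fell by 0.71 ± 0.13, from 12.75 and 12.88 to 12.06 and 12.16 (1.63-fold, adjusted p = 0.0476). The third read 12.27 and 12.65 against 11.48 and 11.72 and differed by -0.86 ± 0.18 (adjusted p = 0.0587). The groups did not overlap on any of the 3 (28.8% of all probe sets tested lay lower without overlap).

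Gapdh, a frequent reference gene in expression work, was read by 3 control probe sets of the array at the start, middle and end of its transcript. The middle set read 14.02 and 14.04 on the controls and 13.80 and 13.70 on the stimulated arrays. The 3 sets differed by -0.24 to -0.28, or by -0.22 to -0.27 with each array centred on its median. The groups did not overlap on them, where 28.8% of all probe sets tested lay lower without overlap. When the manufacturer's controls were added to the fit, an alternative chosen after seeing the data, none of the 3 passed (adjusted p = 0.243 to 0.319). RMA values can compress at this height, so a change can be understated.

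Phosphoglycerate kinase makes the first ATP, and phosphoglycerate mutase shifts the phosphate for enolase. None of the 5 probe sets was called by limma, and 3 had an unadjusted p under 0.05 (23.9% of all probe sets tested). All 5 lay lower on both stimulated arrays (28.8% of all). Pgk1 differed by -0.35 to -0.43 on 3 probe sets, of which the brightest read 13.20 and 13.50 on the controls and 12.95 and 12.88 on the stimulated arrays. Pgam1, the broadly expressed mutase, differed by -0.44 ± 0.16. Pgam2, the muscle mutase, had close controls at 11.13 and 11.08, while its stimulated arrays lay apart at 10.00 and 10.80 (-0.71 ± 0.26, adjusted p = 0.179).

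Enolase forms phosphoenolpyruvate, and its 2 measured isoforms differed in sign. Eno2 read 4.96 and 4.69 on the controls and 6.61 and 6.15 on the stimulated arrays, a rise of 1.56 ± 0.20 (2.95-fold, adjusted p = 0.0268). The groups were 1.20 apart at their nearest arrays. The controls lay only a little above the filter level of 4.39, so the rise began from a dim signal. Eno3, the muscle enolase, read 11.58 and 11.87 on the controls and 10.27 and 11.36 on the stimulated arrays. Its stimulated arrays differed by 1.09, and the difference of -0.91 ± 0.35 was not called (adjusted p = 0.186). Stimulated 1 was the lower array for Eno3 as for Pgam2, the other muscle isoform of this stretch. Pkm, pyruvate kinase, read 11.87 and 12.14 against 11.43 and 11.49 and differed by -0.55 ± 0.15 (adjusted p = 0.0944).

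Lactate dehydrogenase interconverts pyruvate and lactate. Ldha, the subunit that favours lactate formation, read 12.97 and 13.35 on the controls and 12.04 and 12.20 on the stimulated arrays. It fell by 1.03 ± 0.17 (2.05-fold, adjusted p = 0.0393), and the groups were 0.76 apart at their nearest arrays. Ldhb, the heart subunit, differed by -0.33 to -0.41 on 4 probe sets (adjusted p = 0.126 to 0.221). Its brightest read 12.28 and 12.06 on the controls and 11.78 and 11.80 on the stimulated arrays. All 4 lay lower without overlap (28.8% of all probe sets tested). In each of the 4 control 1 was the higher control, unlike Ldha.

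The monocarboxylate transporters carry lactate across the membrane. Slc16a3, the exporter MCT4 of glycolytic cells, read 9.17 and 10.54 on the controls and 7.80 and 8.32 on the stimulated arrays. The difference of -1.80 ± 0.44 was the next largest after those of Pdk1 and Aldoc, yet it was not called (adjusted p = 0.0799), with controls 1.37 apart and a nearest gap of 0.85 between the groups. Against control 1 alone it was -1.11 and against control 2 alone -2.48. Slc16a1, the broadly expressed transporter MCT1, read 11.58 and 11.68 on the controls and 11.72 and 11.66 on the stimulated arrays. These overlapped, and the difference was 0.06 ± 0.13 with a 95% interval from -0.25 to 0.37. Its other probe set read 4.10 to 4.42, below the filter level on average.

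The pyruvate dehydrogenase kinases hold pyruvate back from the mitochondrial complex. Pdk1, the isoform induced by hypoxia, had the largest falls of the pathway. Its brightest probe set read 7.63 and 9.01 on the controls and 6.13 and 6.28 on the stimulated arrays, and its difference of -2.11 ± 0.42 just missed the threshold (4.32-fold, adjusted p = 0.0527). The next read 7.17 and 8.49 against 5.40 and 5.54, a fall of 2.36 ± 0.40 (5.14-fold, adjusted p = 0.0409). The dimmest of the 3 read 7.14 and 8.89 against 4.78 and 4.76, a fall of 3.24 ± 0.52 (9.47-fold, adjusted p = 0.0368). Its stimulated arrays lay only a little above the filter level of 4.39, so this fold is measured against a dim signal.

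On all 3 tested Pdk1 probe sets the stimulated arrays were at most 0.15 apart and the controls 1.32 to 1.75 apart. The nearest gap between the groups was 1.35 to 2.36. Against control 1 alone the 3 changes were -1.42 to -2.37, and against control 2 alone -2.80 to -4.12. The size of the fall thus depended on which control was used. Its direction could not turn, because the groups did not overlap. Another Pdk1 probe set read 3.03 to 3.64, below the filter level.

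The controls of the other kinases lay closer together. Pdk2 read 8.09 and 7.86 on the controls and 7.27 and 7.39 on the stimulated arrays (-0.65 ± 0.14, adjusted p = 0.0654). Pdk3 read 10.93 and 11.04 against 10.26 and 10.50 (-0.60 ± 0.14, adjusted p = 0.0759). Pdk4, which is induced by fasting and fatty acids in muscle, differed in sign at 0.22 ± 0.17, with overlap and a 95% interval from -0.19 to 0.63.

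**Figure D3:**
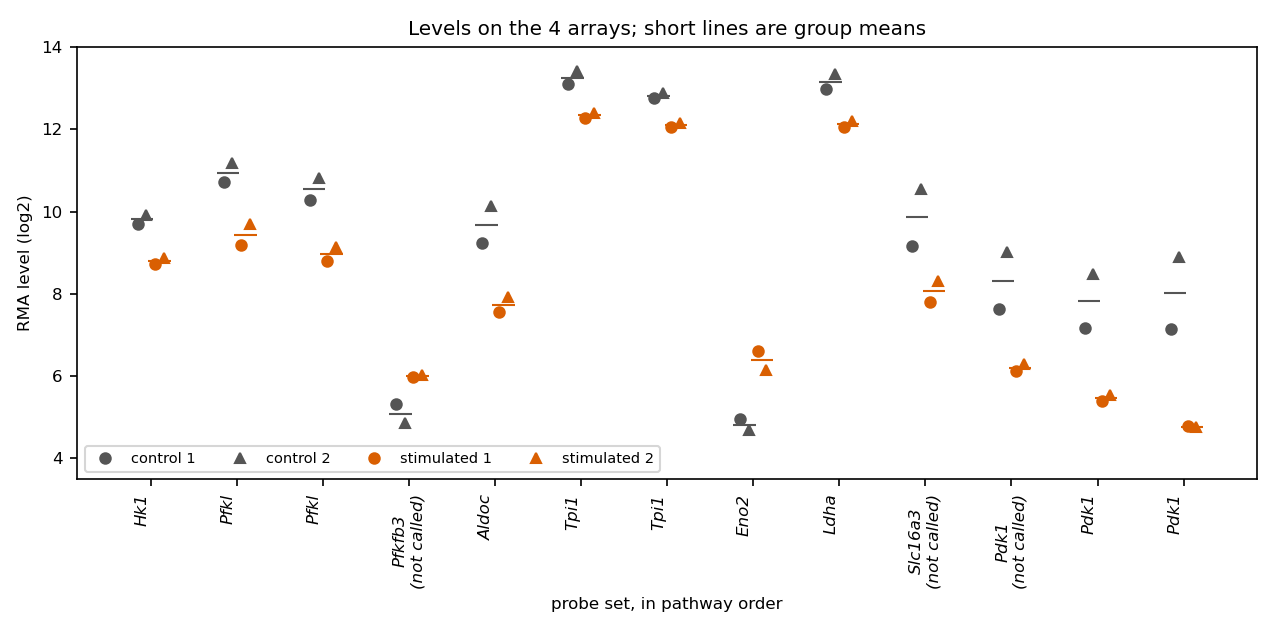
RMA level on the log2 scale on each of the 4 arrays for the 10 called member probe sets and for 3 that were not called but lay close to the threshold or had a large difference (Pfkfb3, Slc16a3 and the brightest of Pdk1). Short lines are group means. Control 2 lies above control 1 in each called fall, and the gap is widest for Pdk1 and Slc16a3.

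The pyruvate dehydrogenase complex turns pyruvate into acetyl-CoA. None of the 8 probe sets of its subunits and phosphatase was called by limma, and 5 had an unadjusted p under 0.05 (23.9% of all probe sets tested). Their controls were the closest of any step, with a median difference of 0.09. Pdha1, the catalytic alpha subunit, read 12.04 and 11.92 on the controls and 11.51 and 11.64 on the stimulated arrays with its brighter probe set (-0.40 ± 0.13, adjusted p = 0.143). The other read 11.86 and 11.84 against 11.39 and 11.38 (-0.47 ± 0.12, adjusted p = 0.0914). Dlat, the acetyltransferase core, differed by -0.33 to -0.47 on 3 probe sets. All probe sets of Pdha1 and Dlat lay lower without overlap (28.8% of all probe sets tested). Pdhb, the beta subunit, read 12.77 and 12.70 against 12.76 and 12.69 with its brighter probe set. That difference was -0.0044 ± 0.13, with a 95% interval from -0.31 to 0.30. The other Pdhb probe set differed by -0.15 ± 0.15, with overlap. Pdp1, the phosphatase that reactivates the complex, read 6.83 and 6.93 on the controls and 7.37 and 7.14 on the stimulated arrays (0.37 ± 0.14, adjusted p = 0.184). Its other probe set read 4.09 to 4.61, below the filter level on average.

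Genes next to the pathway were read from a list of 69, of which 64 were on the array under a single symbol and 56 passed the filter, with 103 probe sets. Their median change was -0.11, and 1 probe set was called lower and 1 higher. These shares, 0.971% each, were below the background shares of 1.38% and 2.47%. The fall was Bpgm, which makes 2,3-bisphosphoglycerate, from 8.40 and 8.07 on the controls to 7.44 and 7.33 on the stimulated arrays (-0.85 ± 0.16, adjusted p = 0.0485). Its other probe sets differed by -0.64 and -0.50. The rise was Pck2, mitochondrial phosphoenolpyruvate carboxykinase, from 6.82 and 6.63 to 7.77 and 7.51 (0.92 ± 0.15, adjusted p = 0.0401). Its other probe set differed by 0.73.

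By group, the medians were -0.08 for other genes of glucose entry, -0.18 for glycogen, 0.12 for the pentose phosphate and hexosamine routes, 0.01 for gluconeogenic and bypass enzymes and -0.19 for the glycerol and malate shuttles. They were -0.11 for lactate and pyruvate carriers and -0.35 for the other subunits of the pyruvate dehydrogenase complex. In the pentose phosphate and hexosamine group 11 of 18 probe sets lay above 0, where the member steps other than the PFKFB enzymes lay mostly below. The difference between these groups and the members was not tested.

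**Figure D4:**
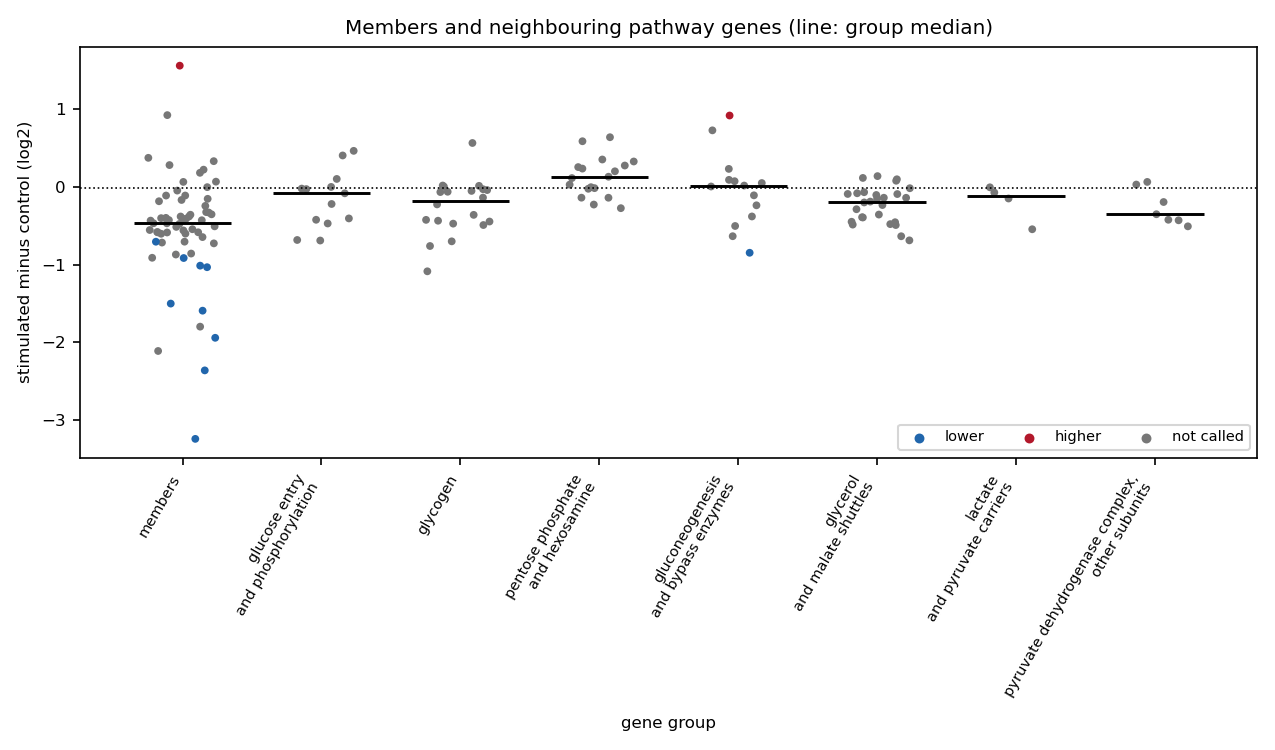
Change of each tested probe set as log2 of stimulated over control, for the members and for 7 groups of neighbouring pathway genes, with the group median as a line and the median of all probe sets tested dotted. The members' median lies at -0.47, and the other groups lie between -0.35 and 0.12.

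The 4 arrays were close in their 3′ to 5′ ratios. The 3′ minus 5′ difference of Gapdh was -0.10 to -0.03 over the 4 arrays and that of Actb 0.22 to 0.30. Across the 27000 tested probe sets, which are not independent replicates, the controls correlated at r = 0.991, the stimulated arrays at 0.989 and arrays of different groups at 0.969 to 0.975. All 14 probe sets of 9 cardiac muscle marker genes passed the filter, with a summed log2 level of 151.1 and 153.7 on the controls and 142.7 and 148.4 on the stimulated arrays. For Myh6, the alpha myosin heavy chain, the brighter probe set differed by -1.03 (adjusted p = 0.111 by limma, not called) and the dimmer fell by 2.89. For Ryr2, the calcium release channel, the brighter fell by 0.85 and the other differed by -0.68 without a call. Nppa, atrial natriuretic peptide, rose by 2.00. No probe set of the other cardiac genes was called. Actc1 differed by -0.22, Myl7 by -0.26, Tnni3 by -0.37 and Nkx2-5 by -0.48. The Myl4 probe sets differed by -0.18 and -0.33, and those of Tnnt2 by -0.16 to -1.24. The cardiac sum was thus lower on both stimulated arrays, as most members were, and its part in their differences was not tested. Of the probe sets of fibroblast markers 4 of 13 passed, of endothelial markers 1 of 5, of smooth muscle markers 5 of 7 and of leukocyte markers 3 of 5. The summed levels on the controls and then on the stimulated arrays were 52.0 and 55.1 against 50.9 and 53.9 for fibroblast, 21.3 and 21.3 against 21.0 and 20.6 for endothelium, 54.9 and 56.5 against 55.6 and 57.8 for smooth muscle, and 21.7 and 22.9 against 24.2 and 24.4 for leukocyte markers. In the leukocyte list Cd68 rose by 2.08, the other tested markers Lyz2 and Cd3e differed by -0.07 and 0.07, and Ptprc lay below the filter level on both its probe sets. The fibroblast gene Col1a1 read 5.51 and 7.55 on the controls and 5.49 and 7.14 on the stimulated arrays with its brighter probe set. Its other probe set was 1.39 higher on control 2 than on control 1, while the other 11 fibroblast probe sets lay between -0.37 and 0.29, so the higher fibroblast sum of control 2 came from Col1a1. Its part in the difference between the controls was not tested.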

How the data were processed

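RNA from 4 samples of HL-1 cells (2 stimulated, 2 control) was measured on 1 Affymetrix array each. The deposited log2 values were made with RMA, per the submitters' processing notes. This method subtracts background, gives all arrays 1 distribution and joins the probes of a set. The RMA version is not given in the sources used here. Scanner files were not used here. Values ran from 2.34 to 14.29, and precision is limited by the number of arrays.

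Gene symbols came from the platform annotation. Of 45101 probe sets, 64 were manufacturer's controls, and of the rest 34945 had 1 symbol, 932 several and 9160 none. Probe sets other than controls were tested where their mean over the 4 arrays reached the 40th percentile, 4.39, which left 27000. limma 3.58.1 in R 4.3.3 (lmFit, eBayes, two-sided) compared stimulated with control, with Benjamini-Hochberg adjustment over the 27000. With 2 arrays a group, the smallest p of an exact permutation test is 0.333, so none was run. The code of the fit was checked on simulated arrays, drawn independently and with spreads shuffled among probe sets. That check does not bear on false calls in these 4 arrays. The members, the neighbouring genes and the marker lists were chosen with earlier results of these data known. By rule, all array values were given for members with a called probe set or with tested probe sets whose changes differed by over 0.5, and the probe set with the highest mean was given first. Array values of other members were added after they were seen. Neighbouring genes were named where called.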

Additional observations from a re-analysis of the deposited data

How the results depend on the processing

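The number of calls depended on the processing. Against 9 member probe sets lower and 1 higher, limma called 5 lower and 2 higher of 32 with 1 probe set a gene, 14 and 2 with a mean-variance trend and robust eBayes, and 8 and 2 with arrays centred on their medians. Without the filter it called 7 lower and 1 higher, and with the 60th percentile filter 12 and 0, since Eno2 lay below that filter. The shares among all probe sets tested moved too. They were 1.64% lower and 3.91% higher with 1 probe set a gene, 2.29% and 3.51% with trend and robust eBayes, 1.31% and 2.80% centred, 0.573% and 1.22% without the filter and 3.29% and 4.96% with the 60th percentile filter, against 1.38% and 2.47%. By gene, 2 rose (Eno2 and Pfkfb3) wherever 2 probe sets did. The calls in Hk1, Aldoc, Eno2, Ldha and Pfkl, in the brightest Tpi1 probe set and in the dimmest tested Pdk1 probe set were made under each alternative that kept all 4 arrays and tested them. With 1 probe set a gene, however, the called Hk1 probe set was not tested. The brighter one stood for Hk1 there and was not called by limma (adjusted p = 0.0784). The other called Tpi1 probe set missed the threshold without the filter (adjusted p = 0.0541) and with centred arrays (0.0516), and the brighter called Pdk1 probe set missed it without the filter (0.0522). The neighbouring genes gave 0 lower and 1 higher without the filter, 4 and 2 with the 60th percentile filter, 3 and 0 with 1 probe set a gene, and 4 and 1 with trend and robust eBayes.

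With 1 array left out, a lone array was assumed to vary like the other group. Members lower ranged from 0 to 3 probe sets and from 0 to 1 genes, members higher were 0, neighbours were 0 in each direction, and the median change ranged from -0.52 to -0.36. Each called member kept its sign in these fits. This was fixed in advance, since the groups did not overlap on any called probe set.

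Signs turned only for probe sets whose difference in the main fit lay from -0.25 to 0.07. Over the fits with 1 array left out, the third Slc2a3 probe set ranged from -0.39 to 0.29, the dimmest from -0.61 to 0.12, Hk2 from -0.25 to 0.022, the brightest Pfkfb2 probe set from -0.31 to 0.085, Pfkfb4 from -0.13 to 0.26, the brighter Pdhb probe set from -0.041 to 0.032 and the other from -0.31 to 0.0016. The turn came without stimulated 2 for Slc2a3, Hk2 and Pfkfb2, without stimulated 2 (-0.03) or control 2 for Pfkfb4, and without stimulated 2 (0.03) or control 1 for Pdhb. With centred arrays the brighter Pdhb probe set was 0.0088. The cause was not tested.

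The labels number the stimulated samples as exp 1 and exp 2, while the control numbers come only from accession order. The labels thus do not tie a stimulated sample to a control of the same number. A fit with this replicate block called 14 members lower and 2 higher, 8 and 2 by gene, and 4 neighbours lower and 3 higher of 103, where the shares among all probe sets were 3.14% and 4.42%. The deviations of same-numbered arrays correlated at 0.31 across the 27000 probe sets.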
